A study of Homo sapiens with 6 samples.

Results

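Sterol and fatty acid synthesis was followed here through 39 enzyme genes and close partners, chosen by gene symbol from the 33835 named genes of the count table. The list was not cut by a measured value, but it was drawn up with earlier results of these data known. The samples were RNA sequencing libraries of DU145, an established cell line from a human prostate carcinoma. The shE6AP group (3 libraries) carried a short hairpin against E6AP, the ubiquitin ligase encoded by UBE3A, and the wobble group (3 libraries) carried the matching control. All cells of both groups received doxycycline at 0.2 µg/ml for 2.5 days, which switched the hairpin on. The labels do not describe the wobble sequence, nor say whether the cells of a group were a pool or a clone or whether its libraries were grown separately. The p-values therefore speak only of how much these libraries varied within a group, and that variation may be technical.

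Cells build cholesterol and fatty acids from the same unit, acetyl-CoA. In the sterol branch, acetyl-CoA is joined into mevalonate, mevalonate into isoprenoid units, and these into squalene, which is closed into a ring and trimmed to cholesterol. In the fatty acid branch, acetyl-CoA is carboxylated, chained into palmitate, then elongated, desaturated and activated with coenzyme A. Genes of both branches are known targets of the SREBP transcription factors, which are processed to their active form when membrane sterol is low, and prostate cancer cells are known for high lipid synthesis.

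Gene reads per library ran from 21558506 to 28228823 in shE6AP and from 27336700 to 30488217 in wobble. UBE3A stood at 14.2, 14.5 and 14.97 CPM (CPM are gene reads relative to the library's total, scaled by TMM factors) in shE6AP 1 to 3, against 54.1, 55.4 and 57.9 CPM in wobble 1 to 3, so the targeted transcript matched the labels. The epithelial markers KRT8, KRT18, KRT19, EPCAM and CDH1 were present in every library, with sums of 1052 to 1088 CPM in shE6AP and 918 to 948 CPM in wobble. Its members went different ways: EPCAM (35.7 to 37.1 CPM in shE6AP, 17.1 to 18.5 CPM in wobble), KRT8 and KRT18 were higher in shE6AP, while KRT19 (192 to 200.4 CPM in shE6AP, 213 to 217 CPM in wobble) and CDH1 (25.2 to 28.1 CPM in shE6AP, 29.2 to 31.7 CPM in wobble) were lower, none with overlap. The blood marker list, with 3 of 5 genes among the rows, summed to 2.58 to 3.55 CPM in shE6AP and 1.33 to 1.80 CPM in wobble, and no hepatocyte or adipocyte marker passed 1 CPM. The endothelial and fibroblast list, with 5 of 6 genes among the rows, summed to 17.2 to 18.9 CPM in shE6AP and 12.2 to 14.8 CPM in wobble, nearly all from COL1A1. Their part in the results was not tested, and in bulk RNA fewer cells of a type and less RNA per cell cannot be told apart. Reads that the counting assigned to no annotated feature made up 15.6% to 16.0% of the table in shE6AP and 14.6% to 15.3% in wobble. The part of this gap in the results was not tested.

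Both branches were lower in shE6AP, though not at every step. Of the 39 genes, 28 were lower, 5 were higher and 6 did not pass (edgeR's quasi-likelihood test; p adjusted by Benjamini-Hochberg over all 19433 genes tested, threshold 0.05). Of the 39 genes 33 were thus called in either direction, where 59% of all genes tested were called. That is 71.8% of them lower, where 30.4% of all genes tested were called lower, and 12.8% higher, where 28.6% of all genes tested were called higher. Their median log2 fold change of shE6AP over wobble was -0.29, beside 0.0084 over all genes tested. A fall of at least 0.5 on the log2 scale was seen in 14 of the 39 (35.9%), where 11.8% of all genes tested fell that far; a rise of that size was seen in 0 of the 39, where 10.3% of all genes tested rose that far. Tested against a fold of 1.2 with edgeR's glmTreat, 19 of the 39 were lower (15.9% of all genes tested) and 1, ME1, was higher (13.1% of all genes tested). The shE6AP and wobble libraries did not overlap in 28 of the genes on the lower side, where 31.9% of all genes tested had this separation, and in 5 on the higher side, where 30.6% did. Every one of the 39 passed the filter on low counts, and none had fewer than 48 reads in a library.

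**Figure D1:**
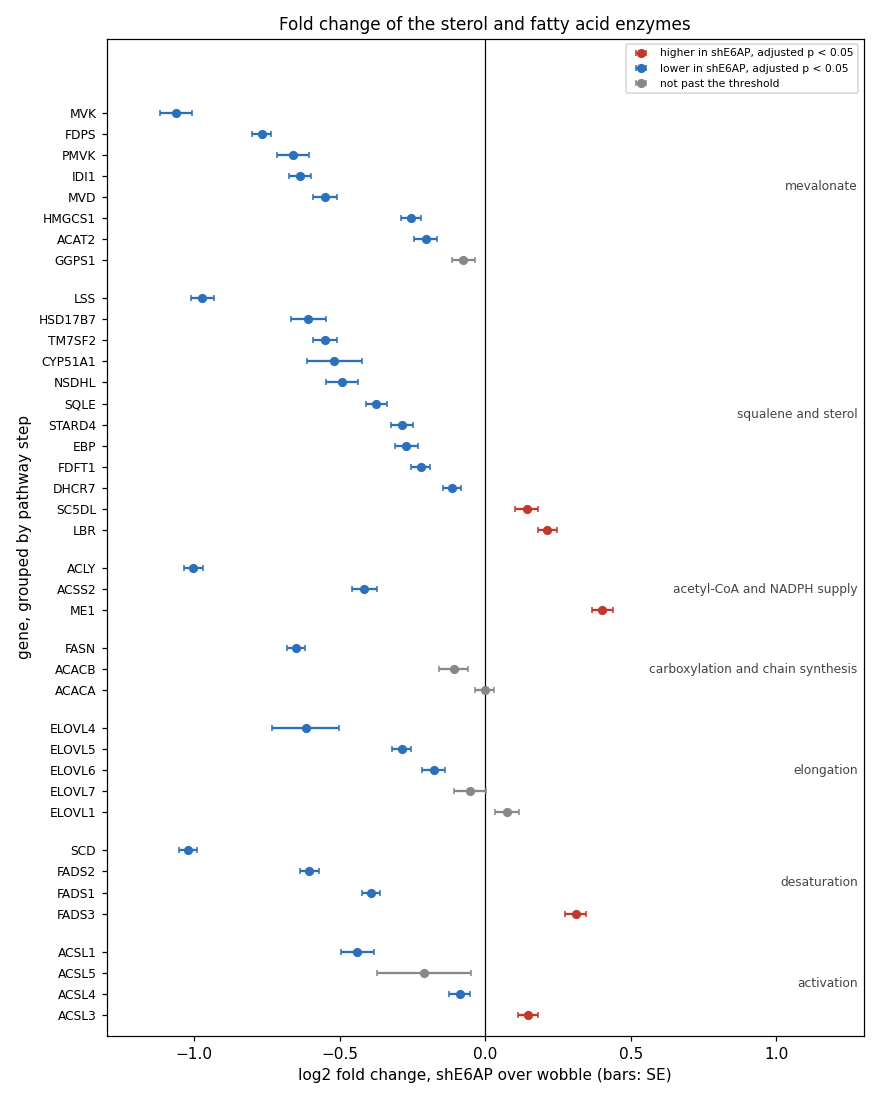
Change of the 39 genes in shE6AP relative to wobble (horizontal axis, log2 fold change; bars are the standard error), grouped by pathway step (vertical axis) and coloured by call. The largest falls were MVK, SCD, ACLY and LSS, near -1, and the 5 rises were LBR, SC5DL, ME1, FADS3 and ACSL3.

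The genes called are counted here by pathway step, where 30.4% of all genes tested were called lower and 28.6% higher. In the mevalonate segment 7 of 8 fell, with a median log2 fold change of -0.59, and in the squalene and sterol segment 10 of 12 fell and 2 rose, with a median of -0.33. Among the 3 genes of acetyl-CoA and NADPH supply 2 fell and 1 rose (median -0.42), and among the 3 of carboxylation and chain synthesis 1 fell and 2 did not pass (median -0.11). Of 5 elongases 3 fell and 2 did not pass (median -0.18). Of 4 desaturases 3 fell and 1 rose (median -0.50), and of 4 acyl-CoA synthetases, which activate fatty acids, 2 fell, 1 rose and 1 did not pass (median -0.15). In carboxylation and chain synthesis the share called lower, 33.3%, was near that of all genes tested. The counts and medians of the steps describe small groups of genes and were not tested against each other.

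Because most of these genes moved together, their promoters were read from RefSeq (GRCh38.p14, 250 bases before to 50 after the start). A window was found for 35 of the 39. None was found for ACAT2, FASN, FDFT1 and SQLE, which all fell, so the motif counts leave these genes out. Among the motifs searched was CCAAT, the box bound by NF-Y, a factor known to act beside SREBP at sterol genes. It was counted on both strands. It occurred in 20 of the 35 windows (57.1%), against 36.1% of the 11739 windows of tested genes, 36.6% of the 4044 windows of genes called lower, and 35.7% of all 27305 windows. By step, it was found in 8 of 10 squalene and sterol windows, 4 of 7 mevalonate windows, 3 of 5 elongase windows, 2 of 4 desaturase windows, 2 of 3 supply windows, 1 of 4 synthetase windows and neither of the 2 windows of acetyl-CoA carboxylases. The box was present in 16 of 24 windows of genes that fell in 3 of 5 of genes that rose and in 1 of 6 of genes that did not pass. MVK and NSDHL held the most, with 5 matches each, and MVD, FDPS and EBP held 3 each. The sterol regulatory letters TCACNCCAC had a match in 0 of the 35 windows and in 1.14% of those of tested genes, and the shorter CACNCCAC, which the longer form contains, matched in SCD, SC5DL and ACSL4 (8.57%, against 5.78%). GGGCGG, the GC box, matched in 80.0% against 68.0%, and CACGTG, an E-box, in 11.4% against 9.79%. A match is a description of the letters, not a bound site, and the windows do not cover distal elements. The windows printed are those of the 5 genes that fell most, whose boxes differ in number and place, and of ME1, the gene that rose most, which has none; capitals mark CCAAT on the printed strand or its reverse complement ATTGG, and each window reads 5′ to 3′ along the gene.
MVK (chr12:109573544-109573843, plus strand): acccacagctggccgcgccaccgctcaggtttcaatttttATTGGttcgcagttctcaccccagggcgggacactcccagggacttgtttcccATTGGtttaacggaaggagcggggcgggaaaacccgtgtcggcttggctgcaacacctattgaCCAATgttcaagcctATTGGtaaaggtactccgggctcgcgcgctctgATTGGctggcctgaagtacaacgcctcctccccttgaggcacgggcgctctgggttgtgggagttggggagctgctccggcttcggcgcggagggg
SCD (chr10:100346983-100347282, plus strand): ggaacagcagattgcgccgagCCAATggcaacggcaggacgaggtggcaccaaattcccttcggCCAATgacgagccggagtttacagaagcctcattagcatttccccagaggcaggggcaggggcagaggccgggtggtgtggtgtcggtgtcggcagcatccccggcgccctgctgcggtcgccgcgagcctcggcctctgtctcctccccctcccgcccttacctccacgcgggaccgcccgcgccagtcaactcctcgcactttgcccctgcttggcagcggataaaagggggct
ACLY (chr17:41918973-41919272, minus strand): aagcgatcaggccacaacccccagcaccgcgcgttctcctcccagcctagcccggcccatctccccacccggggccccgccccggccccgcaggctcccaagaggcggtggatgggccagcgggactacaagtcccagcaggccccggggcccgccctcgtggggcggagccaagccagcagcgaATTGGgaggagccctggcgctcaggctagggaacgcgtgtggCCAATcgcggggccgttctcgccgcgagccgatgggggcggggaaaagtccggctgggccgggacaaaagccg
LSS (chr21:46228725-46229024, minus strand): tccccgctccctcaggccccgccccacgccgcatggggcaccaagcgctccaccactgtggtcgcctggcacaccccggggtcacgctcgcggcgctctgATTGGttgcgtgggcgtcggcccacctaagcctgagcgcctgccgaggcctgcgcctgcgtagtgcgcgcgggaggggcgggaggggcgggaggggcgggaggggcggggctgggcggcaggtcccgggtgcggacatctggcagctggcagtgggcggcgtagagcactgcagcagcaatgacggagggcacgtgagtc
FDPS (chr1:155308616-155308915, plus strand): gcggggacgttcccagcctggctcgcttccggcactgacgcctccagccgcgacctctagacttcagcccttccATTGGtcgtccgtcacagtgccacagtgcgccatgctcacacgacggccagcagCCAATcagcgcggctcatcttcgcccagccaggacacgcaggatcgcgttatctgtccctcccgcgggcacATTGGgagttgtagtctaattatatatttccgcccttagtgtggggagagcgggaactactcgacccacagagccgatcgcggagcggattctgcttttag
ME1 (chr6:83431002-83431301, minus strand): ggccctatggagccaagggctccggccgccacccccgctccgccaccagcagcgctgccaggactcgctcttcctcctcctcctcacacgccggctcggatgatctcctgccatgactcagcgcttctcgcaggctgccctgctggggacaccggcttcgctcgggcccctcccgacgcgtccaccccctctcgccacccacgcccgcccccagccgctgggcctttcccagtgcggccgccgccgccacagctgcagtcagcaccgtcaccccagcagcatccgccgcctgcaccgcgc

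The mevalonate segment starts with the condensation of acetyl-CoA. ACAT2, the cytosolic thiolase, and HMGCS1, which makes HMG-CoA, fell least among the segment's called genes, with log2 fold changes of -0.20 and -0.25. The enzymes after them fell further. MVK, mevalonate kinase, stood at 15.9, 16.0 and 16.3 CPM in shE6AP, against 35.01, 33.2 and 32.3 CPM in wobble. The groups lay far apart, 47.9% of the wobble level remained, and the log2 fold change was -1.06 (SE 0.0548, adjusted p = 6.59e-21 in edgeR). PMVK, the next kinase, had 25.0, 24.5 and 24.2 CPM in shE6AP and 42.0, 39.6 and 35.02 CPM in wobble. Its wobble libraries were spread more widely than its shE6AP libraries, without overlap, and the log2 fold change was -0.66 (SE 0.0542). MVD, the decarboxylase that yields isopentenyl diphosphate, had 47.8, 46.0 and 46.3 CPM in shE6AP and 70.4, 68.7 and 66.4 CPM in wobble (log2 fold change -0.55, SE 0.0405). IDI1, the isomerase that balances both isoprenoid units, had 76.9, 74.8 and 80.2 CPM in shE6AP and 124, 114 and 123 CPM in wobble (log2 fold change -0.64, SE 0.0384). All 3 shE6AP libraries of each gene were below all 3 of wobble.

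At the farnesyl branch point the synthases of the longer chains separated. FDPS, which makes farnesyl diphosphate for the sterol route, had 204, 196 and 203 CPM in shE6AP and 351, 342 and 335 CPM in wobble. This was a fall to 58.7% of the wobble level (log2 fold change -0.77, SE 0.0325, adjusted p = 6.06e-24 in edgeR). GGPS1, which extends farnesyl to geranylgeranyl diphosphate for protein prenylation, had 65.4, 62.7 and 61.9 CPM in shE6AP and 68.0, 67.5 and 64.9 CPM in wobble, and its groups overlapped (log2 fold change -0.076, adjusted p = 0.0926 in edgeR, but 0.0382 without wobble library 3). The log2 ratio of FDPS to GGPS1 within a library was 1.67 ± 0.0393 in shE6AP and 2.36 ± 0.0164 in wobble (SD, n = 3 each). The difference was -0.69, with an exact two-sided permutation p of 0.1, the smallest that 3 libraries against 3 allow. Such a ratio is free of library scaling; 12 pairs were compared and adjusted values were at least 0.12. In GENCODE 29, which is not the annotation that was counted, 41.0% of the exon bases of GGPS1 lie under exons of TBCE or ARID4B, and FDPS has 8 named pseudogenes with which reads could be split.

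**Figure D2:**
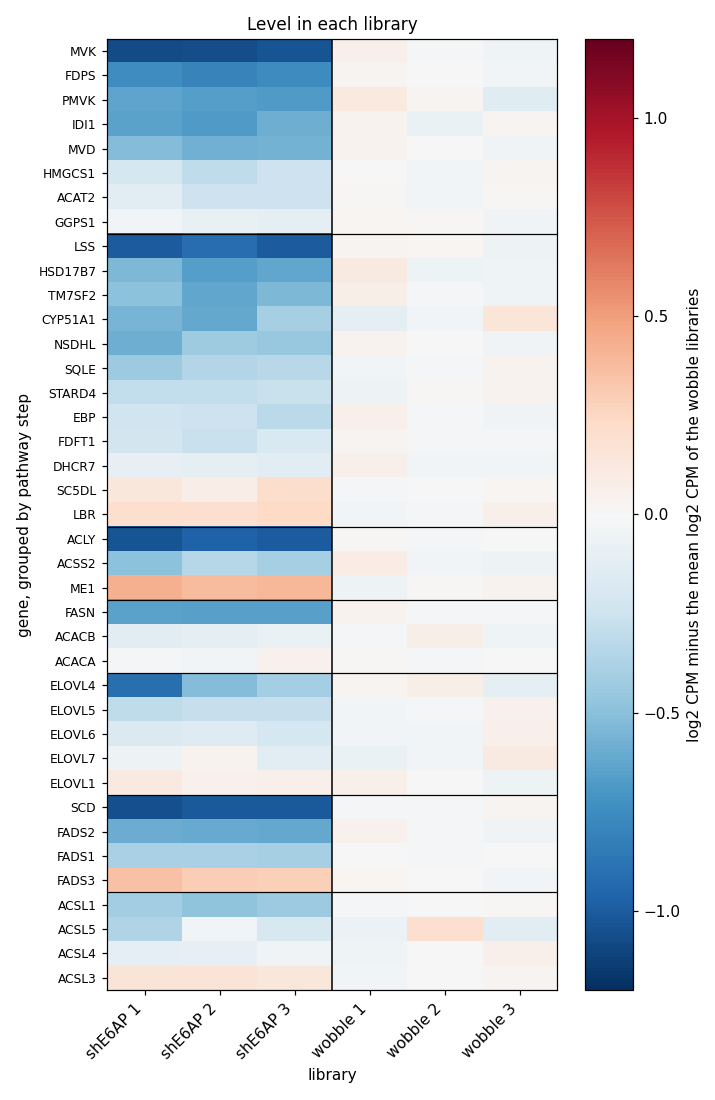
Log2 CPM of each gene in each library (columns, shE6AP 1 to 3 and wobble 1 to 3) minus the mean of the wobble libraries; rows are grouped by pathway step and blue marks lower values. The 3 shE6AP libraries resemble each other, with 28 genes below and 5 above every wobble library.

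In the squalene and sterol segment the fall was steepest at the ring closure. LSS, lanosterol synthase, had 55.3, 58.3 and 55.2 CPM in shE6AP and 113, 112 and 106 CPM in wobble. It kept 51.0% of the wobble level (log2 fold change -0.97, SE 0.0390, adjusted p = 9.69e-25 in edgeR). The 2 enzymes before it, FDFT1 (squalene synthase) and SQLE (squalene epoxidase), fell by 0.22 and 0.37 on the log2 scale. CYP51A1, the demethylase that acts on lanosterol, had 5.996, 5.76 and 6.71 CPM in shE6AP and 8.16, 8.62 and 9.78 CPM in wobble (log2 fold change -0.52, SE 0.0932). Its level rests on few reads: in GENCODE 29, 83.2% of its exon bases are shared with other genes, and reads on shared bases are candidates for the ambiguous class, which held 2.05% to 2.11% of the table in shE6AP and 2.14% to 2.21% in wobble. HSD17B7, a 3-ketosteroid reductase of the demethylation complex, had 18.0, 16.6 and 16.9 CPM in shE6AP and 28.2, 25.1 and 25.2 CPM in wobble (log2 fold change -0.61, SE 0.0592). CYP51A1 has 3 named pseudogenes and HSD17B7 has 2, so some reads of each may be misplaced. NSDHL, the partner dehydrogenase of HSD17B7, fell by 0.49, and EBP, the sterol isomerase, by 0.27. DHCR7, which makes cholesterol from its last precursor, fell least, by 0.11 on the log2 scale, with 299, 295 and 293 CPM in shE6AP against 333, 314 and 314 CPM in wobble. STARD4, a carrier that moves cholesterol between membranes, fell by 0.29.

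The reduction of the sterol C14 double bond has a pair of enzymes, and they moved apart. TM7SF2, the dedicated reductase, had 50.1, 45.8 and 48.7 CPM in shE6AP and 74.0, 69.9 and 68.3 CPM in wobble (log2 fold change -0.55, SE 0.0421). LBR, the lamin B receptor of the inner nuclear membrane, which carries the same reductase activity, had 204, 205 and 209 CPM in shE6AP and 174, 174 and 185 CPM in wobble (log2 fold change 0.21, SE 0.0334, adjusted p = 4.53e-07 in edgeR). Each gene's groups were separate, in opposite directions. The log2 ratio of LBR to TM7SF2 was 2.10 ± 0.0686 in shE6AP and 1.33 ± 0.101 in wobble (SD, n = 3 each; exact two-sided permutation p = 0.1, the smallest possible). The other gene that rose in this segment was SC5DL (now SC5D), the C5 desaturase, with 66.1, 63.7 and 69.7 CPM in shE6AP and 59.6, 60.1 and 61.2 CPM in wobble. That rise was small (log2 fold change 0.14, SE 0.0399, adjusted p = 0.00209 in edgeR) beside the fall of LSS. The log2 ratio of LSS to SC5DL was -0.24 ± 0.105 in shE6AP and 0.87 ± 0.0727 in wobble, the largest difference among the 12 pairs at -1.11 (SD, n = 3 each; exact permutation p = 0.1).

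Both routes to acetyl-CoA fell, by different amounts. ACLY, ATP citrate lyase, which cleaves citrate exported from mitochondria, had 298, 313 and 306 CPM in shE6AP and 620, 605 and 612 CPM in wobble. It kept 49.9% of the wobble level (log2 fold change -1.003, SE 0.0319, adjusted p = 1.86e-28 in edgeR). ACSS2, which makes acetyl-CoA from acetate, fell less, by 0.42 on the log2 scale (SE 0.0437). The log2 ratio of ACLY to ACSS2 was 2.59 ± 0.0434 in shE6AP and 3.19 ± 0.0636 in wobble (SD, n = 3 each; exact two-sided permutation p = 0.1, the smallest possible). ME1, malic enzyme, which yields NADPH for reductive synthesis, went the other way, with 105, 101 and 103 CPM in shE6AP and 74.8, 78.6 and 80.4 CPM in wobble. It reached 132% of the wobble level (log2 fold change 0.40, SE 0.0371, adjusted p = 9.17e-13 in edgeR), the largest rise among the 39 genes.

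Chain synthesis showed a fall at the synthase and none that passed at the carboxylases. FASN, fatty acid synthase, had 533, 530.0 and 530.2 CPM in shE6AP and 858, 817 and 825 CPM in wobble (log2 fold change -0.65, SE 0.0314, adjusted p = 6.87e-22 in edgeR). Its shE6AP libraries were nearly level, and 63.7% of the wobble level remained. ACACA, the cytosolic acetyl-CoA carboxylase that commits acetyl-CoA to fatty acids, had 179.8, 179 and 189 CPM in shE6AP and 184, 181 and 183 CPM in wobble. The groups of ACACA overlapped, its log2 fold change was -0.0015 (SE 0.0332) and its sign turned with the scaling. ACACB, the carboxylase of the mitochondrial surface, whose product restrains fatty acid oxidation, had 29.1, 29.3 and 30.2 CPM in shE6AP and 31.4, 33.3 and 30.7 CPM in wobble. Its groups did not overlap, yet the adjusted p of 0.0531 (log2 fold change -0.11) was just above the threshold in edgeR. It went below it when wobble library 1 (0.0431) or wobble library 3 (0.0255) was left out, or when genes of low count were kept (0.0353).

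**Figure D3:**
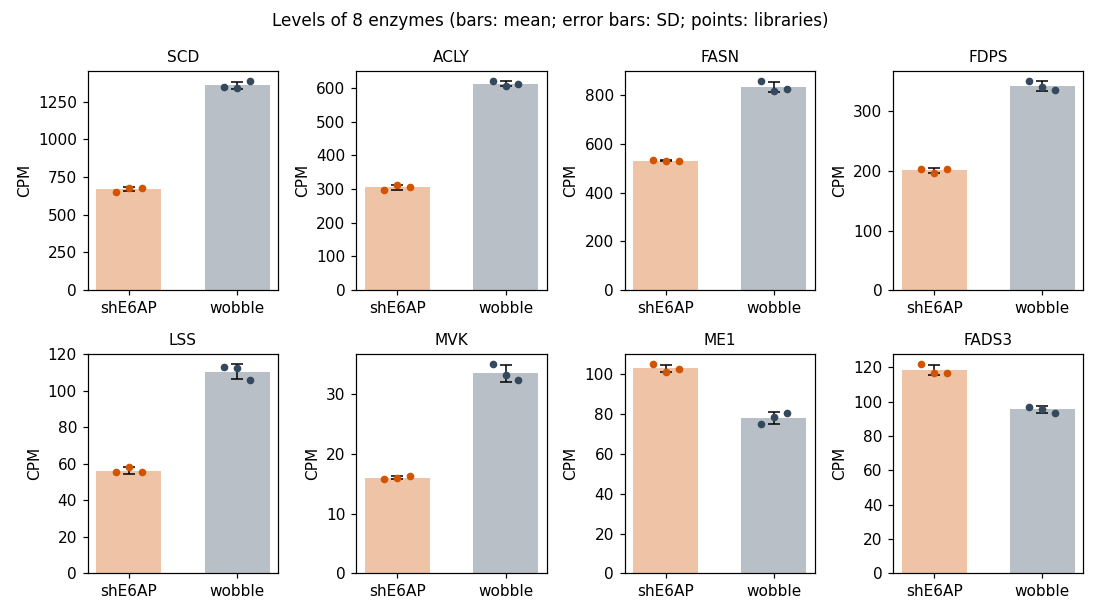
CPM (vertical axis, from 0) of 8 enzymes in shE6AP and wobble; bars are means, error bars the SD and points the 3 libraries of a group. SCD lies between 653 and 677 CPM in shE6AP and between 1339.5 and 1385 CPM in wobble, and ME1 and FADS3 are higher in shE6AP.

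SCD, stearoyl-CoA desaturase, which makes oleate, had 653, 676 and 677 CPM in shE6AP and 1349, 1339.5 and 1385 CPM in wobble. The groups were far apart and 49.2% of the wobble level remained (log2 fold change -1.02, SE 0.0317, adjusted p = 8.36e-29 in edgeR). FADS1, FADS2 and FADS3 are neighbours on chromosome 11, and they did not move as a block. FADS2, the delta-6 desaturase of polyunsaturated fatty acids, had 472, 469 and 464 CPM in shE6AP and 738, 707 and 693 CPM in wobble (log2 fold change -0.60, SE 0.0319). FADS1, the delta-5 desaturase, fell by 0.39 on the log2 scale (SE 0.0307). FADS3, a desaturase of sphingoid bases, rose, with 122, 117 and 116 CPM in shE6AP and 97.0, 95.7 and 93.4 CPM in wobble (log2 fold change 0.31, SE 0.0355, adjusted p = 3.36e-10 in edgeR). The log2 ratio of SCD to FADS2 was 0.51 ± 0.0410 in shE6AP and 0.93 ± 0.0650 in wobble, and that of FADS1 to FADS2 was 0.090 ± 0.00905 in shE6AP and -0.12 ± 0.0425 in wobble (SD, n = 3 each; exact two-sided permutation p = 0.1 for both, the smallest possible). FADS1 and FADS2 share 5.57% and 4.89% of their exon bases with neighbours in GENCODE 29, each other included.

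Of the elongases, 3 of 5 fell. ELOVL5, which lengthens polyunsaturated fatty acids, and ELOVL6, which lengthens palmitate, fell by 0.29 and 0.18 on the log2 scale. Their ratio shifted by -0.11, with groups that did not overlap (exact two-sided permutation p = 0.1, n = 3 each). ELOVL4, the elongase of very long chains, rested on 88 to 107 reads a library in shE6AP and 149 to 183 in wobble, with 3.16, 4.12 and 4.46 CPM in shE6AP and 6.04, 6.23 and 5.50 CPM in wobble. Its log2 fold change of -0.62 had the wide SE of 0.116 that few reads give (adjusted p = 1.14e-05 in edgeR). ELOVL1, for saturated very long chains, averaged 64.2 ± 1.26 CPM in shE6AP and 61.0 ± 2.54 CPM in wobble, and ELOVL7 averaged 24.8 ± 1.47 CPM in shE6AP and 25.7 ± 1.76 CPM in wobble (SD, n = 3 each). Both overlapped between groups and neither passed (adjusted p = 0.106 and 0.436 in edgeR), although ELOVL1 passed with upper-quartile scaling (adjusted p = 0.0234) and without wobble library 1 (0.0350). Their ratio overlapped too.

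Acyl-CoA synthetases differed from one isoenzyme to the next. ACSL1, known for feeding fatty acids into triglyceride and oxidation, fell by 0.44 on the log2 scale (SE 0.0569), with 17.4, 16.7 and 17.3 CPM in shE6AP and 23.1, 23.3 and 23.5 CPM in wobble. ACSL3, the synthetase of the endoplasmic reticulum and lipid droplets, rose, with 169, 168 and 166 CPM in shE6AP and 148, 152 and 155 CPM in wobble (log2 fold change 0.15, SE 0.0332, adjusted p = 1.81e-04 in edgeR). The log2 ratio of ACSL3 to ACSL1 was 3.29 ± 0.0362 in shE6AP and 2.70 ± 0.0164 in wobble (SD, n = 3 each; exact permutation p = 0.1). ACSL4, which prefers arachidonate, had 106, 107 and 111 CPM in shE6AP and 111, 115 and 120 CPM in wobble. These groups overlapped, and the call (log2 fold change -0.087, adjusted p = 0.0367 in edgeR) ended without shE6AP library 1 (0.136), shE6AP library 2 (0.0762), wobble library 2 (0.0562) or wobble library 3 (0.154), and also with DESeq2 (0.0931), library-total scaling (0.065) and upper-quartile scaling (0.161). ACSL5, best known from the intestine, was near 2 CPM in both groups and did not pass (adjusted p = 0.267 in edgeR). Summed over the 4 synthetases, the level was 294.0 to 296.5 CPM in shE6AP and 284.5 to 299.7 CPM in wobble, an overlap, whereas the 4 desaturases summed to 1747 to 1761 CPM in shE6AP and 2792 to 2842 CPM in wobble.

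**Figure D4:**
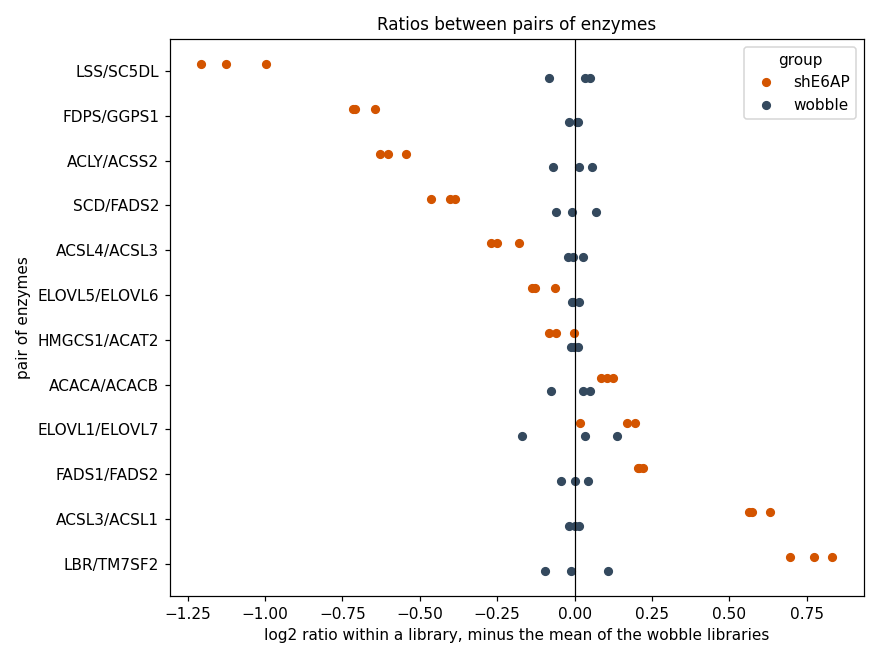
Log2 ratio of 12 pairs of enzymes within each library (horizontal axis), minus the mean of the wobble libraries, with shE6AP drawn above wobble in each row. The groups overlap for HMGCS1/ACAT2 and ELOVL1/ELOVL7 and are separate for the other 10 pairs, from -1.11 for LSS/SC5DL to 0.77 for LBR/TM7SF2.

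Level and change showed little relation. Across the 39 genes the log2 mean CPM and the log2 fold change had a Pearson's r of -0.049 and a Spearman's rho of 0.012; genes of the same libraries are not independent. Set per kilobase of merged exon (GENCODE 29, basic transcripts), the highest level in shE6AP belonged to SCD at 125 CPM per kb. In wobble SCD had 253 CPM per kb. FDPS followed, at 122 CPM per kb in shE6AP and 208 CPM per kb in wobble, and DHCR7 came next in shE6AP at 111 CPM per kb, against 120 CPM per kb in wobble. In wobble, FADS2 (143 CPM per kb) and ACLY (140 CPM per kb) stood above DHCR7. Among the lowest were ACSL5, at 0.518 CPM per kb in shE6AP and 0.593 CPM per kb in wobble, and ELOVL4, at 1.29 CPM per kb in shE6AP and 1.95 CPM per kb in wobble. These ranks depend on the transcripts merged. FDPS has 1647 exon bases in the basic set and 3718 in the full set, which the exon shares above used.

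In all, 7 lists of related genes outside the 39 were counted in the same fit, where 30.4% of all genes tested were lower and 28.6% higher. The lists are small and their counts were not tested against those shares, so a count alone says nothing particular of a list. Among sterol enzymes outside the set, SC4MOL, the C4 oxidase, fell by 0.23 on the log2 scale. In the supply of citrate and NADPH 2 of 7 tested genes fell, 1 rose and 4 did not pass. SLC25A1, the carrier that exports the citrate cleaved by ACLY, had 59.8, 57.6 and 60.2 CPM in shE6AP and 167, 159 and 154 CPM in wobble, a log2 fold change of -1.43 (SE 0.0382). IDH1, an NADPH source, fell by 0.39 on the log2 scale. Of 9 partners of the elongation cycle 4 were higher, 2 were lower and 3 did not pass. ELOVL2, an elongase of polyunsaturated chains, fell by 0.74 and PTPLA, a dehydratase of the cycle, by 0.92, whereas PTPLB, another dehydratase, rose by 0.24 on the log2 scale.

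Of 14 genes on the side branches of mevalonate, 6 fell, 3 rose and 5 did not pass; ACAT1, the mitochondrial thiolase, fell by 0.44, and ICMT and ZMPSTE24, which finish prenylated proteins, rose by 0.24 and 0.20 on the log2 scale. Among 9 genes of SREBP control and uptake 6 fell and none rose, led by SREBF1 (log2 fold change -1.07) and INSIG1 (log2 fold change -1.03). SREBF2, the form named for sterol genes, fell by 0.10. In glycerolipid synthesis 6 of 9 tested genes fell and 2 rose. LPIN1, a phosphatidate phosphatase, fell by 0.80, and AGPAT1, an acyltransferase, fell by 0.67 on the log2 scale, while LPIN2, a second phosphatase, rose by 0.42. Sterol esterification and efflux had 3 of 7 genes lower and 3 higher. ABCG1, a sterol exporter, had 7.54, 7.21 and 7.67 CPM in shE6AP and 3.07, 2.91 and 3.43 CPM in wobble (log2 fold change 1.26, SE 0.107). MYLIP, a ubiquitin ligase, fell by 0.59, and SOAT1, which esterifies cholesterol, by 0.31 on the log2 scale.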

How the data were processed

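Per the labels' protocols, TRIzol was used for extraction and a TruSeq RNA kit (version 2) for the libraries. The submitters' processing notes name TopHat2 2.0.13, Bowtie2, HTSeq and the build hg19, without saying which annotation or strand setting was used. In the deposited table the values are raw counts, whole numbers of reads for each gene. It has 33839 rows, of which a nameless one (at most 4.59e-05% of reads), an empty one and 2 summary lines from HTSeq were set aside. Testing used edgeR 4.0.16 under R 4.3.3, namely filterByExpr, TMM factors and the quasi-likelihood test with group as the only term; a standard error was obtained by dividing the log2 fold change by the root of its F statistic. Ratios used a prior count of 0.5. Replicates were not copies of one library: their chi-square per gene was 1.75 to 3.47, beside 46.6 to 55.1 for libraries of different groups. All 39 symbols had a row. The genes, the lists and the enzyme pairs were chosen with earlier results of these data known. Values in every library are given for genes changed by at least 0.5 on the log2 scale or against most of their step, and for a few others chosen after their values were seen; of each related list, up to 3 genes by smallest p are named; some genes of these lists and 1 marker list are not reported here. SREBF2 and the motifs were also chosen afterwards. Alternatives were DESeq2 1.42.0, voom in limma 3.58.1, a robust fit, other scalings (RLE, upper quartile, library total), other filters (none, or 1 CPM in 3 libraries), a block for replicate number, leaving out each library, a prior count of 2 for ratios, and glmTreat against a fold of 1.2. The fit was tested on simulated data.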

Additional observations from a re-analysis of the deposited data

How the results depend on the processing

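Every alternative but 1 left the number of genes lower at 27 to 30 of the 39 and the number higher at 5 or 6. With edgeR's glmTreat against a fold of 1.2, 5637 genes were called across the table, 2553 higher (13.1%) and 3084 lower (15.9%), and among the 39 genes 19 were lower and 1 was higher (ME1). Leaving out 1 library at a time gave 10708 to 11084 genes called, 27 to 29 of the 39 lower and 5 to 6 higher. The sign of ACACA, called in no fit, turned positive with 1 CPM in 3 libraries (0.0057), DESeq2 (0.0024), RLE (0.0024), library-total (0.0083) and upper-quartile scaling (0.027), without shE6AP replicate 1 (0.0070) and without shE6AP replicate 2 (0.0091); over the left-out libraries it ran from -0.027 to 0.0091. Upper-quartile scaling shifted the median of all genes by 0.028. The replicate number as a block gave 30 of the 39 lower, with GGPS1 (adjusted p = 0.0472 in edgeR) and ACACB (0.0314) added, 5 higher and 11979 genes called; same-numbered libraries deviated together only weakly (r = 0.044, 0.017 and 0.037), each more than with other numbers, which is a hint from the data and not from the design, so pairing was not assumed. Ratios kept their direction in all 96 recomputed values. Depth limits ACSL5, ELOVL4 and CYP51A1 most.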
